A study of Mus musculus with 12 samples.

Results

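The COPII and COPI vesicle transport genes are 41 genes whose products carry proteins between the endoplasmic reticulum (ER) and the Golgi apparatus. They were taken as a list of named members: 11 of the COPII coat, 7 of the COPI coat, 3 of the Arf cycle that recruits COPI, 16 cargo receptors and 4 SNAREs. Of the 23337 gene symbols counted, 40 members were present under their own symbol and Copg1 under its older symbol Copg. All 41 were among the 12038 genes tested, although Kdelr3 passed the filter with only a few reads a library.

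RNA of mouse regulatory T cells (Treg) was sequenced in 4 groups of 3 libraries, from C57BL/6 mice aged 8 weeks. Induced Treg (iTreg) were CD4 T cells from spleen and lymph nodes cultured for 5 days with IL2 and TGFbeta and sorted as GFP+ cells, and they carried either the KO label (Hrd1 flox/flox, FoxP3-cre+-GFP) or the WT label (Hrd1 +/flox, FoxP3-cre+-GFP). Natural Treg (nTreg) were sorted as CD4+GFP+ cells from spleen and lymph nodes of mice with the same KO and WT genotypes. The WT label therefore also carries Cre and a floxed allele. Cre is driven from Foxp3, the transcription factor that defines Treg, which the iTreg culture is meant to induce. The question put by the design is what loss of Hrd1 changes in each kind of Treg. Hrd1 (gene Syvn1) sits in the ER membrane as a ubiquitin ligase and marks misfolded ER proteins for degradation.

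Secretory and membrane proteins leave the ER in vesicles coated with COPII. The small GTPase Sar1 starts the coat, Sec23 and Sec24 form its inner layer and hold cargo, and Sec13 and Sec31 form its outer cage. COPI vesicles, built from the 7-subunit coatomer on Arf GTPases, return escaped ER proteins and receptors from the Golgi. T cells depend on this traffic for surface receptors and cytokines, and many of these genes are known targets of the unfolded protein response, the transcriptional program that follows misfolding in the ER.

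Total counts ran between 6763458 and 15462894 a library. The targeted gene did not follow its label in nTreg: Syvn1 was at 146, 137 and 130 CPM (counts scaled to library size) in nTreg libraries labelled KO, against 73.7, 87.2 and 75.5 CPM in those labelled WT (log2 fold change 0.80, adjusted p = 0.023 by edgeR). In iTreg it was at 54.6, 73.1 and 63.1 CPM in libraries labelled KO, against 61.6, 72.2 and 101 CPM in those labelled WT (log2 fold change -0.30, adjusted p = 0.75). Which exons were floxed is not given in the sources used here, and a count over the whole gene does not check the loss of a part of it, so KO and WT below name labels. The Treg markers summed to 4092 to 5031 CPM in iTreg libraries labelled KO and 4624 to 5237 CPM in those labelled WT, and to 4523 to 4745 CPM in nTreg libraries labelled KO and 4669 to 5104 CPM in those labelled WT, and none of the 7 was called between labels in nTreg. Reads of Xist, which female cells transcribe, exceeded 10 CPM in 3 libraries (iTreg WT replicate 2, nTreg KO replicate 3 and nTreg WT replicate 3). The Y-linked gene Ddx3y was at 0 CPM in that iTreg library, and at 141 CPM in nTreg KO replicate 3 and 103 CPM in nTreg WT replicate 3, so these 2 nTreg libraries held reads of both genes. Whether the 3 libraries of a group come from 3 mice is not in the labels. In iTreg WT, replicates 1 and 3 had Xist at 0.075 and 0 CPM and Ddx3y at 112 and 147 CPM. Replicate 2 of that group thus did not come from the same animals. Pairs of libraries within a group differed beyond sampling noise (mean chi-square per gene from 7.53 to 57.2 over the pairs). The p-values below speak of the spread among libraries, and in the other groups the part of it between animals is not known.

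Promoter sequences set the members beside the transcription factors of the unfolded protein response. XBP1 and ATF6, which are activated by ER stress, are known to bind the letters TGACGTGG, called the UPRE-like motif here. RefSeq promoters (GRCm38.p6, the build named mm10 in the submitters' processing notes, 250 bases before and 50 from the start of transcription) were given for 36 of the 41 members. The 8 stretches below are shown because they are the matches to that motif in the members' promoters, 2 of them in Stx5a. In each line the capitals mark the motif on either strand, in the direction of the gene.
Sec24d, chr3:123267452-123267495, plus strand: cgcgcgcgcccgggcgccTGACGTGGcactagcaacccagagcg
Sec23a, chr12:59011986-59012029, minus strand: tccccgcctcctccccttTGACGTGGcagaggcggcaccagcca
Copb1, chr7:114254683-114254726, minus strand: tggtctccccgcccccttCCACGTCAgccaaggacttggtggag
Copb2, chr9:98563706-98563749, plus strand: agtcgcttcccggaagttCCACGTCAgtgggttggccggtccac
Arf1, chr11:59228221-59228264, minus strand: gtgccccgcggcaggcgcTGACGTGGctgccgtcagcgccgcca
Kdelr3, chr15:79516360-79516403, plus strand: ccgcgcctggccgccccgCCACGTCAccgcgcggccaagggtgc
Stx5a, upstream match, chr19:8741415-8741458, plus strand: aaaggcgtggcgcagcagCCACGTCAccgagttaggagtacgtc
Stx5a, downstream match, chr19:8741445-8741473, plus strand: gttaggagtacgtctaggTGACGTGGcgg

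The motif stood in promoters of 7 of 36 member genes (19.4%), against 0.714% of all 27025 genes with a promoter and 1.09% of the 8654 tested genes with one. In Sec24d it lay at positions -26 to -19 from the start, in Copb1 at -28 to -21 and in Kdelr3 at -30 to -23. Of the 15 members with a promoter that passed the test between the KO and WT labels in nTreg, 3 held it, namely Sec24d, Arf1 and Stx5a, and of the 21 that were not called, 4 held it. The shorter core TGACGT, which the UPRE-like motif contains, stood in 15 of 36 member genes (41.7%), against 8.37% of all genes and 13.8% of the tested genes. The letters CCACG, which the reverse strand of the UPRE-like motif also contains, stood in 27 of 36 (75.0%), against 35.5% of all genes and 52.8% of the tested genes. The ER stress element (CCAAT, 9 bases of any kind, CCACG) and its relative ERSE-II (ATTGG, 1 base of any kind, CCACG) were in 0 member promoters, against 0.137% and 0.0444% of all genes and 0.196% and 0.0693% of the tested genes. A match describes letters in this window and shows no binding.

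The whole promoters of Sec24d, Bet1 and Tmed10 are shown for contrast, since these genes had large differences in nTreg and only that of Sec24d holds the UPRE-like motif. Capitals mark the UPRE-like motif in Sec24d and CCACG, on either strand, in Bet1 and Tmed10.
Sec24d, chr3:123267246-123267545, plus strand: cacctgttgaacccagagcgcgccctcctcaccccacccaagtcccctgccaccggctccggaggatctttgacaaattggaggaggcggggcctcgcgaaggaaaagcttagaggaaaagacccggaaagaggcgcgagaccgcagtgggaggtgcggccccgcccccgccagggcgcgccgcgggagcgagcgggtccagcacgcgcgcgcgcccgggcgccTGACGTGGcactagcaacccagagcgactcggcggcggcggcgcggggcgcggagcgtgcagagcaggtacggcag
Bet1, chr6:4086881-4087180, minus strand: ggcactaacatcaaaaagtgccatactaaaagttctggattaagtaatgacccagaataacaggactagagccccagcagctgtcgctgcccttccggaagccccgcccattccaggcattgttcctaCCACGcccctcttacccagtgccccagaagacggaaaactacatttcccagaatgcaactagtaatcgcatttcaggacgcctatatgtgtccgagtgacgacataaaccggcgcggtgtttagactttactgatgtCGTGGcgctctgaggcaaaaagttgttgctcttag
Tmed10, chr12:85374668-85374967, minus strand: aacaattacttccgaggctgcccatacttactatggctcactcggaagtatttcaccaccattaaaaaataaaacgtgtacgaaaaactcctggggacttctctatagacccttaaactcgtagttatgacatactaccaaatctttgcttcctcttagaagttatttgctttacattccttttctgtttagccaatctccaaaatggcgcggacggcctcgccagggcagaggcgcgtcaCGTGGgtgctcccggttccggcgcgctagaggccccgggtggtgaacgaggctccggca

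In nTreg, 19 of the 41 vesicle transport genes were higher in libraries labelled KO than in those labelled WT and 0 were lower (edgeR quasi-likelihood test, Benjamini-Hochberg adjusted p under 0.05 over all tested genes). The background was 2.18% of all tested genes called higher and 0.341% called lower. The median log2 fold change of the members was 0.43 (1.35-fold), against 0.01 over all tested genes. Cargo receptors held 10 of the 19 calls, the COPII coat 4, the Arf cycle 2, the SNAREs 2 and the COPI coat 1. At an unadjusted p under 0.05, 33 members were higher and 0 lower, where 8.6% of all tested genes were higher. DESeq2 called 28 members higher and 0 lower, where it called 2.86% of all tested genes higher.

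Members summed to 7014 to 7207 CPM in nTreg libraries labelled KO and 4896 to 5077 CPM in those labelled WT, so the groups did not overlap. For 37 members every KO library lay above every WT library, a pattern held by 15.7% of all tested genes. For Sec24b every KO library lay below, a pattern held by 14.1% of all tested genes, and Sar1b, Ergic2 and Ergic3 overlapped. The RNA is from sorted bulk cells, in which fewer cells of a type and less RNA per cell cannot be told apart.

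Same-numbered nTreg libraries deviated together, and when that number entered the fit as a block, 32 members were called higher and 0 lower, where 5.36% of all tested genes were called higher. The blocked calls comprised 7 of 11 COPII genes, 7 of 7 COPI genes, 3 of 3 Arf cycle genes, 11 of 16 cargo receptors and 4 of 4 SNAREs. Without the libraries that had Xist reads, 4 members were called (Sec24d, Tmed10, Surf4 and Bet1) while the members' median was 0.47. Of the 12092 genes tested in that fit, 70 were called higher. Without both nTreg libraries numbered 2 there were 7 member calls with a median of 0.43, where 100 of 12146 tested genes were called higher. Calls that held in all 6 fits with 1 nTreg library left out were those of Sar1a, Sec24d, Arf1, Tmed2, Tmed3, Tmed9, Tmed10, Lman1, Lman2, Surf4 and Bet1. The other 8 were lost in 3 to 6 of those fits.

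**Figure D1:**
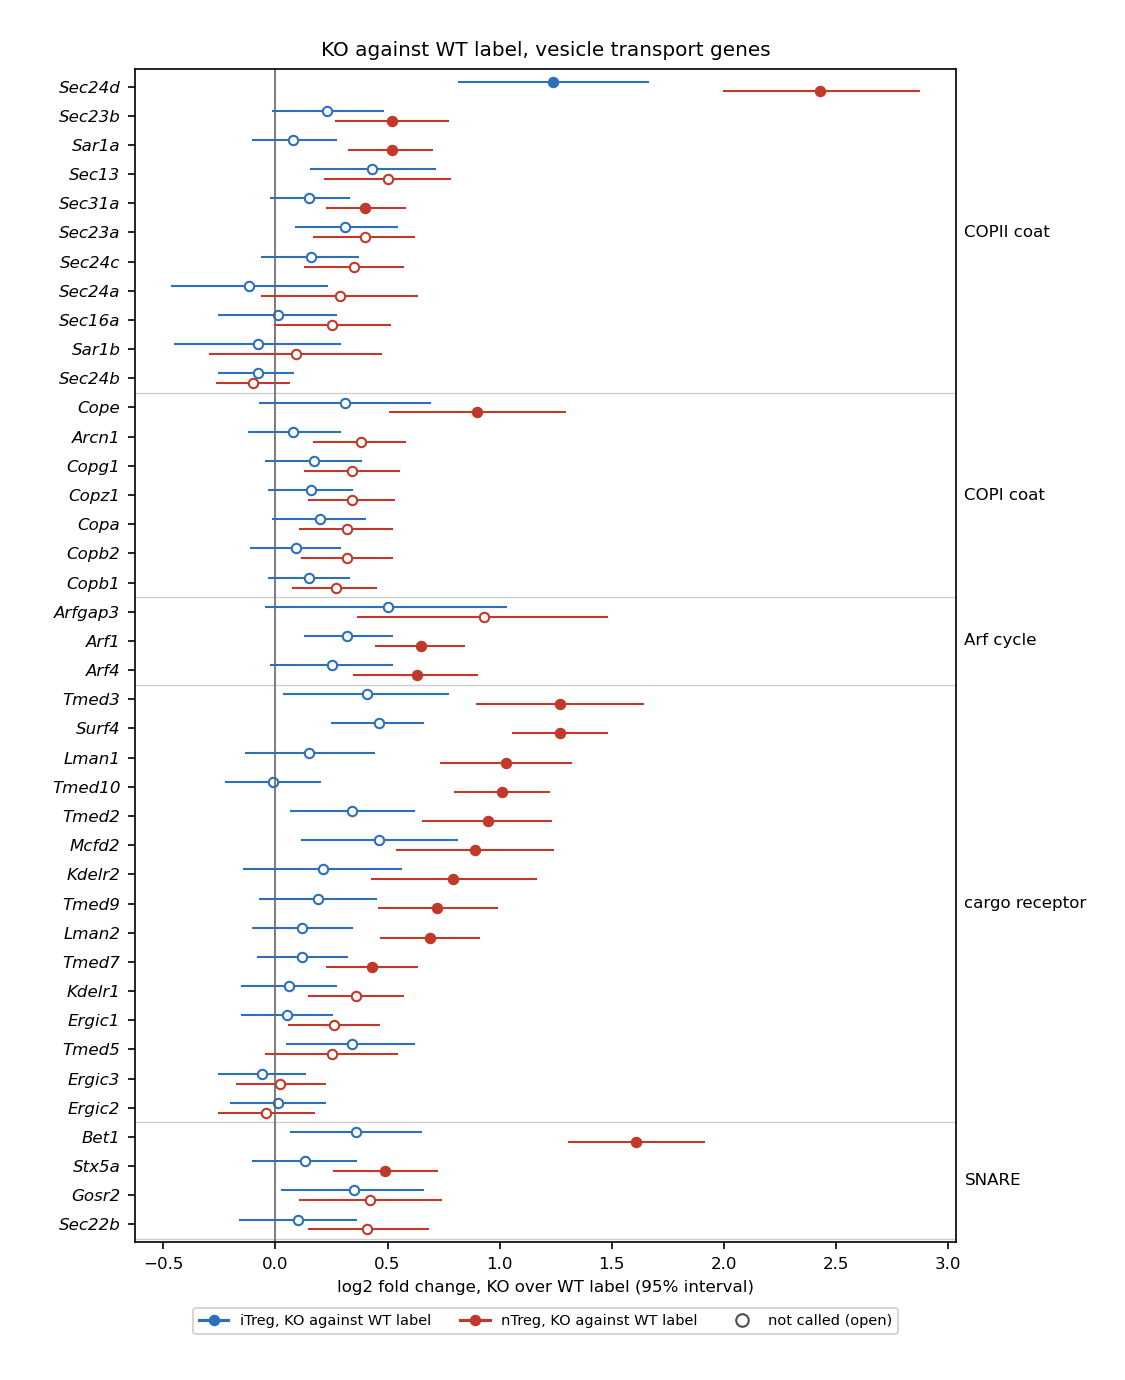
Log2 fold change of KO over WT label (x axis, with 95% intervals) for 40 members, by subgroup, in iTreg (blue, upper of each pair) and nTreg (red, lower). Filled points passed adjusted p under 0.05: 1 gene in iTreg and 19 in nTreg. Kdelr3, which had few reads, is left out.

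Among the COPII coat genes the widest difference in nTreg was that of Sec24d (chr3:123267455-123365641, GENCODE M21 on mm10), an inner coat subunit that selects cargo. Sec24d stood at 106, 124 and 94.1 CPM in libraries labelled KO, against 20.7, 17.7 and 21.5 CPM in those labelled WT (log2 fold change 2.43 ± 0.20 SE, adjusted p = 3.1e-05). All 3 KO libraries were over 4 times any WT library. Its paralogs did not pass the test. Sec24c was at 482, 549 and 506 CPM with the KO label, against 387, 407 and 410 CPM with the WT label, and its log2 fold change of 0.35 missed the threshold (adjusted p = 0.11; 0.011 with the block). Sec24a was at 143, 159 and 178 CPM with the KO label, against 116, 136 and 141 CPM with the WT label (0.29, adjusted p = 0.47). Sec24b was at 163, 157 and 163 CPM with the KO label, against 175, 169 and 173 CPM with the WT label (-0.10, adjusted p = 0.61).

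Per kilobase of exon, Sec24c had the highest level of the 4 Sec24 genes in every group. Sec24d was the lowest in 3 groups, and in nTreg KO it was at 17.1 ± 2.34 CPM per kilobase beside 15 ± 1.65 for Sec24a, a difference within their spread. Sec24d made up 12.2% ± 1.30 of the summed Sec24 level per kilobase in nTreg KO libraries, against 2.93% ± 0.297 in nTreg WT libraries (SD, n = 3). In iTreg its share was 9.48% ± 2.14 in KO libraries, against 4.39% ± 1.13 in WT libraries. Sec24b held 19.1% ± 1.36 in nTreg KO, against 26.6% ± 1.08 in nTreg WT, while Sec24c held 58.0% ± 0.943 in nTreg KO, against 59.2% ± 0.562 in nTreg WT. The mean summed Sec24 level was 140 ± 6.99 CPM per kilobase in nTreg KO and 108 ± 2.86 CPM per kilobase in nTreg WT.

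Sar1a, a GTPase that starts the coat, was at 188, 180 and 187 CPM in nTreg KO libraries, against 129, 128 and 132 CPM in WT libraries (log2 fold change 0.52 ± 0.08, adjusted p = 0.0047). Its paralog Sar1b was at 49.1, 43.4 and 33.9 CPM with the KO label, against 45.8, 41.2 and 32.4 CPM with the WT label, with groups that overlapped (0.09, adjusted p = 0.88). In both groups Sar1b was highest in replicate 1 and lowest in replicate 3. Sar1a made up 59.8% ± 4.58 of the Sar1 level per kilobase in nTreg KO, against 52.4% ± 4.80 in nTreg WT.

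Sec23b, which activates the GTPase of Sar1, was at 107, 106 and 114 CPM in nTreg KO libraries, against 80.9, 72.8 and 73.6 CPM in WT libraries (0.52 ± 0.12, adjusted p = 0.031). Sec23a was at 56.7, 61.7 and 61.6 CPM with the KO label, against 48.0, 40.3 and 48.3 CPM with the WT label (0.40, adjusted p = 0.075; 0.031 with the block). Both Sec23 genes were thus near each other in fold, and the share of Sec23b per kilobase was 58.2% ± 1.17 in nTreg KO and 56.1% ± 2.09 in nTreg WT. Sec31a, of the outer cage, was at 265, 244 and 268 CPM with the KO label, against 196, 191 and 201 CPM with the WT label (0.40 ± 0.08, adjusted p = 0.018). Its partner Sec13 averaged 108 ± 8.37 CPM with the KO label and 76.3 ± 2.30 CPM with the WT label (0.50, adjusted p = 0.069; 0.023 with the block). Sec16a, which scaffolds the ER exit sites, had a log2 fold change of 0.25 (adjusted p = 0.38).

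**Figure D2:**
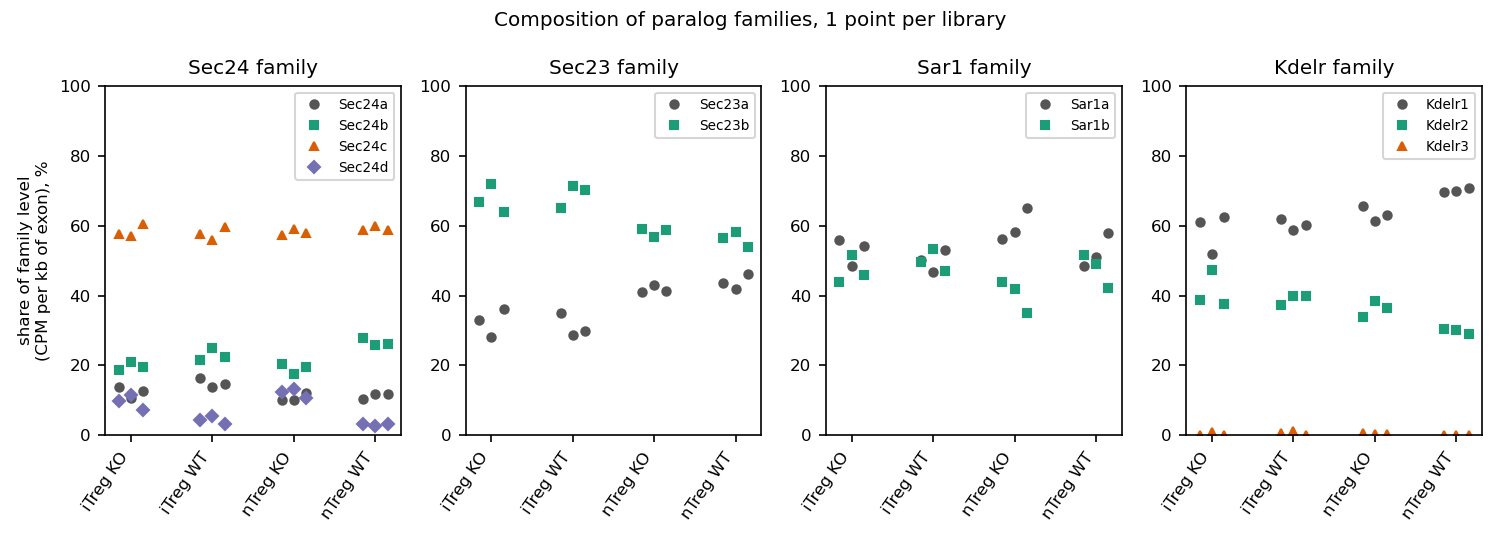
Share of each paralog in the summed level of its family (y axis, percent of CPM per kilobase of exon), 1 point per library, in iTreg KO, iTreg WT, nTreg KO and nTreg WT. Sec24d moves up with the KO label in both kinds of Treg, to 12.2% in nTreg KO against 2.93% in nTreg WT, while Sec23 shares in nTreg stay within a few percentage points.

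Of the COPI coat, Cope, the epsilon subunit of coatomer, was the only gene called in nTreg. It was at 158, 173 and 154 CPM in KO libraries, against 86.0, 86.5 and 87.3 CPM in WT libraries (log2 fold change 0.90 ± 0.18, adjusted p = 0.016). The other 6 subunits lay in a narrow band: Copa 0.32, Copb1 0.27, Copb2 0.32, Copg1 0.34, Copz1 0.34 and Arcn1 0.38, with adjusted p from 0.065 to 0.16. For each of the 7 subunits every nTreg KO library lay above every WT library, and with the block each of them passed (Cope at 0.00017, the others from 0.014 to 0.045). Arcn1 shares long stretches with the processed pseudogenes Gm8752 and Gm8750, so its count is uncertain.

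Arf1, the GTPase that recruits coatomer to Golgi membranes, was at 364, 364 and 378 CPM in nTreg KO libraries, against 244, 220 and 242 CPM in WT libraries (0.65 ± 0.09, adjusted p = 0.0012). Arf4, a related GTPase, was at 177, 174 and 184 CPM with the KO label, against 120, 112 and 114 CPM with the WT label (0.63 ± 0.13, adjusted p = 0.018). Exons of Arf4 overlap those of Pde12 on the opposite strand over 527 bases. Pde12 itself had a log2 fold change of -0.07 (adjusted p = 0.845). Arf1 held 78.1% ± 0.211 of the summed level of both per kilobase in nTreg KO and 77.8% ± 0.635 in nTreg WT. Arfgap3, which makes Arf1 hydrolyse GTP, averaged 28.0 ± 4.95 CPM with the KO label and 14.8 ± 2 CPM with the WT label, and its log2 fold change of 0.93 missed the threshold (adjusted p = 0.099; 0.0035 with the block).

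Cargo receptors had the highest median log2 fold change of the 5 subgroups in nTreg, 0.76 (1.69-fold). Surf4 (chr2:26920040-26933928), a receptor for soluble secreted proteins, stood at 576, 572 and 549 CPM in KO libraries, against 236, 228 and 239 CPM in WT libraries (1.27 ± 0.10, adjusted p = 1.7e-05). Per kilobase of exon it was the second most abundant member in nTreg after Arf1, at 172 ± 4.46 CPM per kilobase with the KO label and 71.4 ± 1.62 with the WT label. Arf1 was at 176 ± 3.77 CPM per kilobase with the KO label, so Surf4 and Arf1 did not differ there beyond their spread, and at 113 ± 6.39 with the WT label. Exons of Surf4 overlap those of Surf2 by 144 bases on the opposite strand, and Surf2 had a log2 fold change of -0.12 (adjusted p = 0.735).

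The Tmed genes encode p24 proteins, which cycle between ER and Golgi and load lipid-anchored cargo into COPII vesicles. Tmed10 was at 218, 234 and 218 CPM in nTreg KO libraries, against 112, 110 and 112 CPM in WT libraries (1.01 ± 0.10, adjusted p = 1e-04). Tmed3 was at 63.5, 61.3 and 58.4 CPM with the KO label, against 26.3, 23.5 and 26.2 CPM with the WT label (1.27 ± 0.17, adjusted p = 0.0011). Tmed2 was at 43.8, 45.0 and 46.3 CPM with the KO label, against 23.5, 24.3 and 22.3 CPM with the WT label (0.95 ± 0.13, adjusted p = 0.0012). In these 3 genes the lowest KO library was over 1.5 times the highest WT library. Tmed2 is covered over 604 bases at 100% identity by the processed pseudogene Gm10698, and Tmed10 over 324 bases by Tmed10-ps, so the counts of both are uncertain.

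Tmed9 was at 231, 208 and 210 CPM in nTreg KO libraries, against 138, 131 and 124 CPM in WT libraries (0.72 ± 0.12, adjusted p = 0.006). Tmed7 was at 164, 178 and 180 CPM with the KO label, against 123, 132 and 132 CPM with the WT label (0.43 ± 0.09, adjusted p = 0.025). Tmed5 was at 126, 125 and 122 CPM with the KO label, against 94.8, 109 and 109 CPM with the WT label, and did not pass (0.25, adjusted p = 0.44; 0.24 with the block). Thus 5 of the 6 Tmed members were called. Of the summed Tmed level per kilobase, Tmed5 held 9.15% ± 0.0348 in nTreg KO against 13.1% ± 1.08 in nTreg WT, and Tmed3 12.2% ± 0.330 in nTreg KO against 8.60% ± 0.585 in nTreg WT. Tmed7 shares 838 bases of exon with Ticam2 on the same strand, and Ticam2 had a log2 fold change of 0.42 (adjusted p = 0.774).

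Lman1 and Mcfd2 form the receptor that carries coagulation factors out of the ER. Lman1 was at 77.8, 103 and 87.4 CPM in nTreg KO libraries, against 38.7, 49.0 and 43.8 CPM in WT libraries (1.03 ± 0.13, adjusted p = 0.00086). In both groups replicate 2 was highest and replicate 1 lowest. Mcfd2 was at 50.9, 57.3 and 52.4 CPM with the KO label, against 32.9, 26.0 and 27.9 CPM with the WT label (0.89 ± 0.16, adjusted p = 0.0089). Lman2, a lectin of the early secretory pathway, was at 297, 305 and 304 CPM with the KO label, against 187, 177 and 198 CPM with the WT label (0.69 ± 0.10, adjusted p = 0.0021). None of these 3 genes had groups that overlapped.

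KDEL receptors return ER chaperones that have escaped to the Golgi. Kdelr2 was at 60, 66.5 and 65.3 CPM in nTreg KO libraries, against 39.0, 34.5 and 37.1 CPM in WT libraries (0.79 ± 0.17, adjusted p = 0.025). Kdelr1 was at 119, 109 and 116 CPM with the KO label, against 91.9, 82.5 and 92.4 CPM with the WT label (0.36, adjusted p = 0.089; 0.012 with the block). Kdelr1 made up 63.3% ± 2.16 of the family level per kilobase in nTreg KO and 70.1% ± 0.601 in nTreg WT. Kdelr3 was counted with 7, 10 and 3 reads in KO libraries and 1, 0 and 1 in WT libraries. Summed over libraries this is a ratio of 7.28, with a 95% exact interval of 1.77 to 64.2 that covers counting error only, and it did not pass the test (adjusted p = 0.42).

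Of the ERGIC proteins, which cycle through the compartment between ER and Golgi, Ergic2 and Ergic3 showed the smallest differences among cargo receptors. Ergic1 had a log2 fold change of 0.26 (adjusted p = 0.22), Ergic3 of 0.02 (adjusted p = 0.94) and Ergic2 of -0.04 (adjusted p = 0.90). Exons of Ergic2 overlap those of Far2 on the opposite strand over 837 bases (12.4% of its exons), so its count is uncertain. The 95% interval ran from -0.17 to 0.22 for Ergic3 and from -0.25 to 0.17 for Ergic2. None of the 3 passed with the block.

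Of the SNAREs, which fuse the vesicle with its target membrane, Bet1 (chr6:4076899-4086972) had the second widest difference of all called members in nTreg. It was at 50.8, 56.9 and 46.4 CPM in KO libraries, against 16.7, 17.4 and 16.3 CPM in WT libraries (1.61 ± 0.14, adjusted p = 4.1e-05). Its partners were nearer to the members' median. Stx5a, syntaxin 5, was at 154, 156 and 149 CPM with the KO label, against 105, 119 and 104 CPM with the WT label (0.49 ± 0.11, adjusted p = 0.029). Gosr2 (0.42, adjusted p = 0.21; 0.0078 with the block) and Sec22b (0.41, adjusted p = 0.13; 0.011 with the block) passed with the block and with only the groups compared in the fit, and not by DESeq2.

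**Figure D3:**
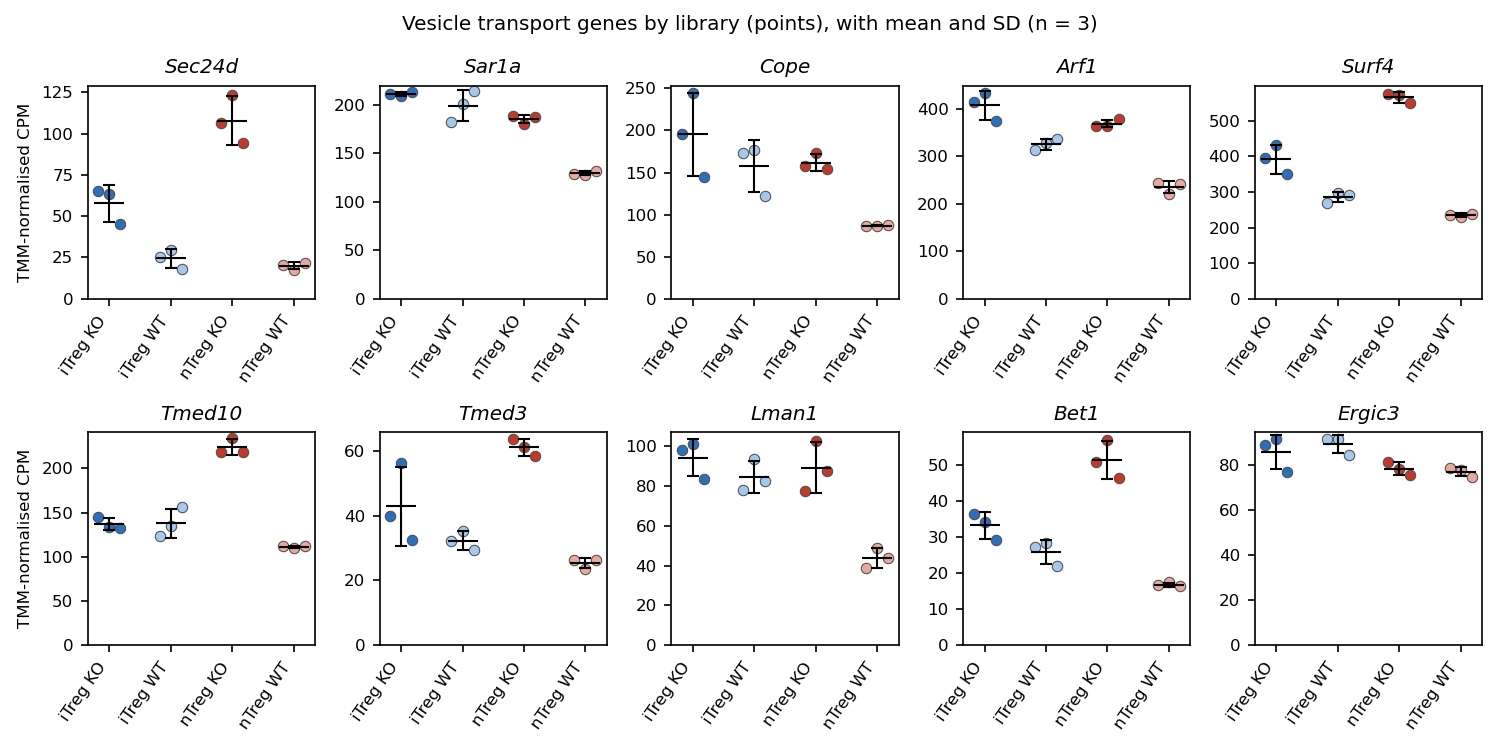
TMM-normalised CPM (y axis) of 10 members in each library (points), with mean and SD of 3 libraries, in iTreg KO, iTreg WT, nTreg KO and nTreg WT. All nTreg KO points lie above all nTreg WT points except for Ergic3. In iTreg the groups are apart for Sec24d, Arf1, Surf4 and Bet1 and overlap for the other 6.

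In iTreg, 1 of the 41 vesicle transport genes was called higher in libraries labelled KO and 0 were called lower, where 0.166% of all tested genes were called higher and 0.0166% lower. This gene was Sec24d, at 65.2, 63.6 and 45.1 CPM in iTreg KO libraries, against 25.5, 29.7 and 18.2 CPM in WT libraries (1.24 ± 0.19, adjusted p = 0.029; 0.002 with the block). Its call was lost in 4 of 6 fits with an iTreg library left out, with a log2 fold change between 1.07 and 1.40 across them. With only the iTreg groups in the fit, 0 members and 0 of all tested genes were called. Libraries varied more in iTreg: the SD of the member sum was 481 CPM in iTreg KO and 215 in iTreg WT. It was 98.6 CPM in nTreg KO and 92.1 in nTreg WT. The main fit shares its estimate of the spread over all groups, so counts of calls in iTreg and nTreg do not compare effect sizes alone. The median log2 fold change of the members was 0.16, against -0.01 over all tested genes. At an unadjusted p under 0.05, 11 members were higher and 0 lower, where 3.83% of all tested genes were higher. DESeq2 called 3 members higher and 0 lower, where it called 0.615% of all tested genes higher.

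For 10 members every iTreg KO library lay above every WT library, against 4.68% of all tested genes. These were Sec13, Sec23a, Sec24d, Sec31a, Copb1, Arf1, Tmed2, Mcfd2, Surf4 and Bet1. For 1 member, Sec24b, every iTreg KO library lay below every WT library, against 4.95% of all tested genes. Surf4 was at 395, 431 and 349 CPM in iTreg KO libraries, against 268, 296 and 292 CPM in WT libraries (0.46 ± 0.09, adjusted p = 0.11). With the block Surf4 was called too (0.45, adjusted p = 0.031), which made 2 calls where 0.673% of all tested genes were called higher. Arf1 was at 415, 432 and 374 CPM with the KO label, against 312, 327 and 335 CPM with the WT label, and missed the threshold (0.32, adjusted p = 0.33). Bet1 was at 36.3, 34.1 and 29.2 CPM with the KO label, against 27.1, 28.3 and 22.0 CPM with the WT label (0.36, adjusted p = 0.53). Tmed10 was at 145, 134 and 133 CPM with the KO label, against 123, 135 and 156 CPM with the WT label, with groups that overlapped (-0.01, adjusted p = 1).

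The log2 fold change of KO over WT label was lower in iTreg than in nTreg for 38 of the 41 members. For some it changed sign, as for Sar1b (-0.08 in iTreg and 0.09 in nTreg) and the sparsely counted Kdelr3 (-0.66 in iTreg and 2.69 in nTreg). For 3 members the difference itself passed the test (iTreg minus nTreg, negative values meaning a lower log2 fold change in iTreg). Over all tested genes the difference was negative in 54.6%. The background was 0.274% of all tested genes called lower and 0.0166% called higher in this test. Bet1 had a difference of -1.25 (adjusted p = 0.017), with effects of 0.36 in iTreg and 1.61 in nTreg. Tmed10 had a difference of -1.02 (adjusted p = 0.012), with effects of -0.01 in iTreg and 1.01 in nTreg. Surf4 had a difference of -0.81 (adjusted p = 0.026), with effects of 0.46 in iTreg and 1.27 in nTreg. Without nTreg WT replicate 1, without nTreg WT replicate 3 and without the libraries with Xist reads, 0 members were called. DESeq2 called 7 members lower and 0 higher, where it called 0.93% of all tested genes lower. With edgeR at an unadjusted p under 0.05, 17 members were lower and 0 higher, where 5.46% of all tested genes were lower.

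With the block, 7 members had a smaller effect in iTreg, where 1.46% of all tested genes were called lower. The added genes were Sec24d (-1.17, adjusted p = 0.013), Lman1 (-0.87, adjusted p = 0.0088), Tmed3 (-0.88, adjusted p = 0.029) and Cope (-0.60, adjusted p = 0.033). Without the block the difference for Sec24d was -1.19, with a 95% interval of -1.78 to -0.60 before adjustment (adjusted p = 0.13). The other COPI subunits differed by -0.12 to -0.29 and did not pass. The effect of Tmed5 was 0.34 in iTreg and 0.25 in nTreg, a difference of 0.08 (95% interval -0.32 to 0.49).

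The 2 kinds of Treg were then compared within each label. These comparisons share libraries with those above, so their values are set side by side and not taken as further support. With the KO label, 5 members were higher and 14 lower in iTreg than in nTreg, where 32.1% of all tested genes were called higher and 29.8% lower, and the members' median log2 fold change was 0.08, against 0.01 over all tested genes. With the WT label, 24 members were higher and 5 lower in iTreg, where 34.8% of all tested genes were called higher and 30.4% lower, and the median was 0.33, against 0.05. Members summed to 6127 to 7055 CPM in iTreg KO and 7014 to 7207 CPM in nTreg KO, and to 5721 to 6112 CPM in iTreg WT and 4896 to 5077 CPM in nTreg WT.

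With the KO label the 5 members higher in iTreg were Sec13 (0.72), Sar1b (0.59), Kdelr2 (0.40), Ergic2 (0.38) and Copb2 (0.36). Each of them was also called higher in iTreg with the WT label. The call of Kdelr2 with the KO label (adjusted p = 0.047) was lost with RLE size factors, with either other low-count filter, by DESeq2 and with only the groups compared. The lowest in iTreg was Sec24d, at 65.2, 63.6 and 45.1 CPM in iTreg KO libraries against 106, 124 and 94.1 CPM in nTreg KO libraries (-0.90, adjusted p = 0.0012). With the WT label Sec24d differed by 0.29 between the kinds and did not pass (adjusted p = 0.21). Surf4 was lower in iTreg with the KO label (-0.53, adjusted p = 0.00042) and higher with the WT label (0.28, adjusted p = 0.019). Tmed10 (-0.71 and 0.31), Bet1 (-0.63 and 0.62) and Lman2 (-0.28 and 0.29) likewise passed in opposite directions with the KO and the WT label. Both calls of Lman2 were lost with only the groups compared, and its WT-label call also with RLE size factors and with no low-count filter. The WT-label calls of Surf4 and Tmed10 were lost with no low-count filter. Sec16a and Sec24b were lower in iTreg with both labels (Sec16a -0.85 with KO and -0.61 with WT, Sec24b -0.48 with KO and -0.50 with WT).

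With the WT label the largest well-counted differences were Kdelr2 (log2 fold change 0.99, adjusted p = 0.00026), Lman1 (0.95, adjusted p = 6e-05) and Cope (0.86, adjusted p = 0.0011), all higher in iTreg. Lman1 was at 78.0, 93.7 and 82.6 CPM in iTreg WT libraries, against 38.7, 49.0 and 43.8 CPM in nTreg WT libraries. Kdelr3 was also among the 24, with 14, 26 and 1 reads in iTreg WT libraries against 1, 0 and 1 in nTreg WT libraries. That call rests on 2 iTreg libraries, and with only the groups compared in the fit Kdelr3 did not pass the filter. The 5 members lower in iTreg with the WT label were Sec16a (-0.61), Sec24b (-0.50), Sec24c (-0.32), Stx5a (-0.28) and Sec23a (-0.27).

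**Figure D4:**
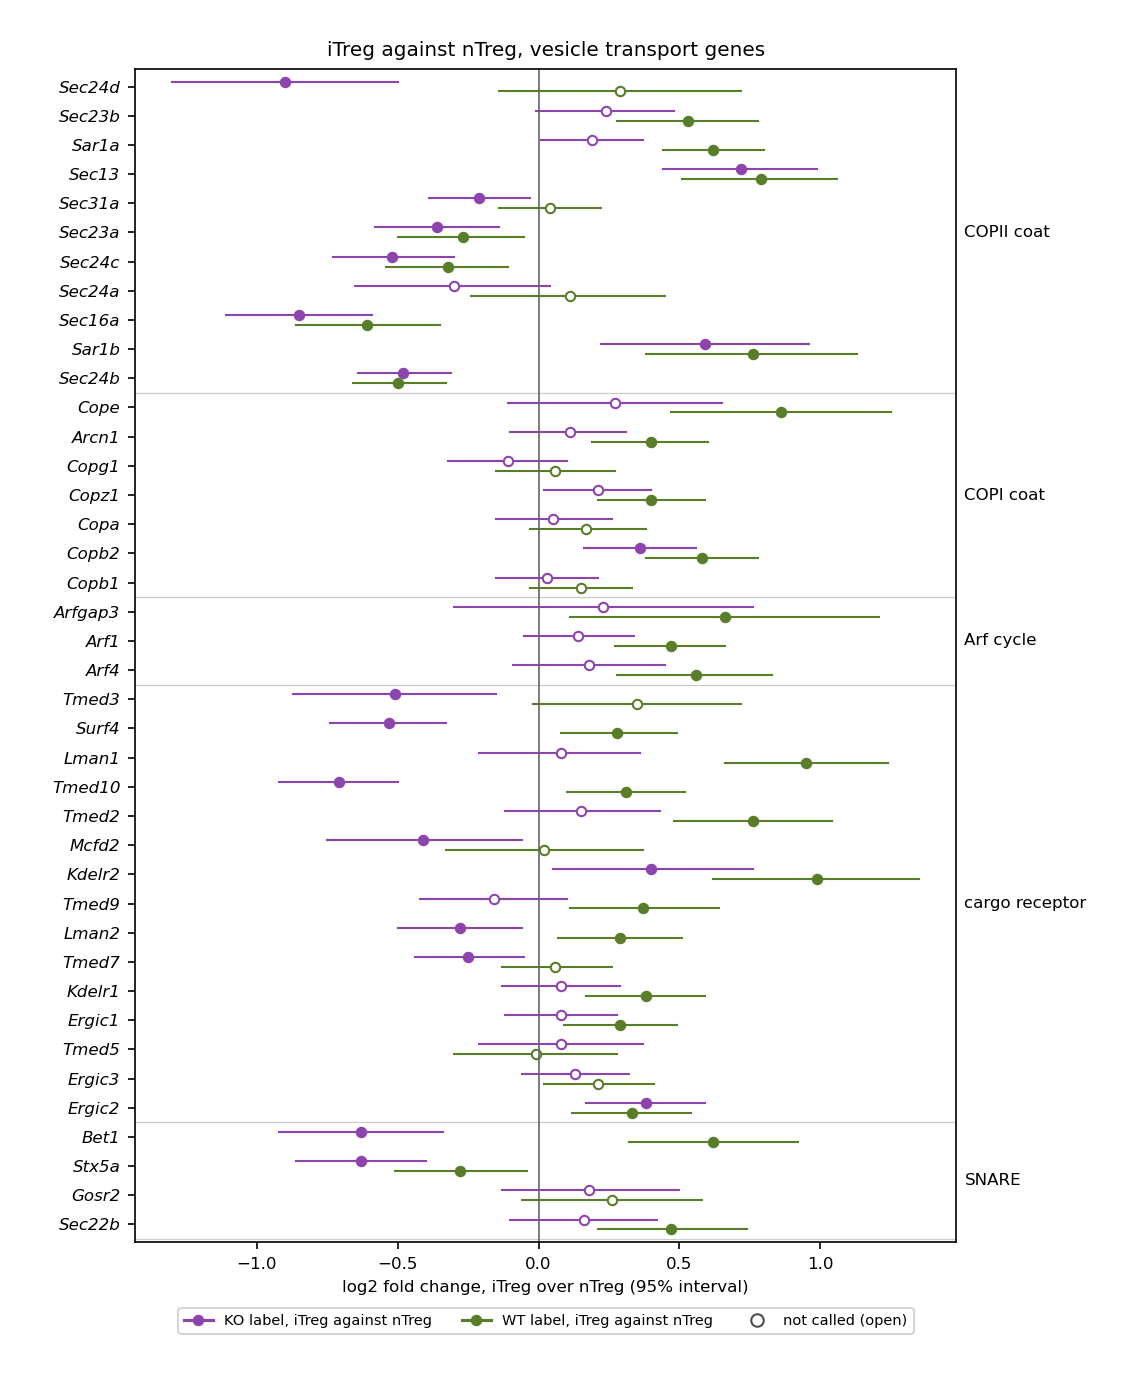
Log2 fold change of iTreg over nTreg (x axis, with 95% intervals) for 40 members, by subgroup, with the KO label (purple, upper of each pair) and the WT label (green, lower). Filled points passed adjusted p under 0.05. Surf4, Tmed10, Lman2 and Bet1 are filled on opposite sides of 0. Kdelr3 is left out.

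Other genes of the same traffic route followed in part. Of 59 tested genes on a list of 66, edgeR called 7 higher in nTreg KO libraries and 0 lower. Of all tested genes it called 2.18% higher and 0.341% lower. The median log2 fold change of the 59 was 0.11. At an unadjusted p under 0.05, 16 were higher and 1 lower, where 8.6% of all tested genes were higher. DESeq2 called 8 higher and 0 lower, where it called 2.86% of all tested genes higher. Gorasp2, a Golgi stacking protein, averaged 183 ± 7.47 CPM in nTreg KO and 91.6 ± 8.37 CPM in nTreg WT (0.99, adjusted p = 0.00031). Uso1, the tether p115 that docks COPII vesicles, averaged 184 ± 4.67 CPM in nTreg KO and 108 ± 4.37 CPM in nTreg WT (0.77, adjusted p = 0.00042). The other 5 were Nbas (0.78), of the tether that receives COPI vesicles at the ER, Scfd1 (0.67), which binds syntaxin 5, Tfg (0.59), which organises ER exit sites, Yipf5 (0.53), a Golgi membrane protein, and Preb (0.44), the exchange factor that loads Sar1 with GTP. In iTreg edgeR called 0 of the 59 in either direction, where it called 0.166% of all tested genes higher and 0.0166% lower. At an unadjusted p under 0.05, 8 were higher and 1 lower in iTreg, where 3.83% of all tested genes were higher. DESeq2 called 2 of the 59 higher in iTreg, where it called 0.615% of all tested genes higher.

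Transcription factors known to control secretory genes were higher in nTreg KO libraries for 5 of 7 tested genes on a list of 9. Over all tested genes, 2.18% were called higher in nTreg by the same edgeR test. Creb3l2, an ER-anchored factor known to activate Sec23a in mouse cartilage, averaged 67.2 ± 4.33 CPM in nTreg KO and 14.9 ± 2.20 CPM in nTreg WT (2.18, adjusted p = 0.00053). Xbp1 was at 367, 405 and 370 CPM in nTreg KO libraries, against 89.8, 90.0 and 101 CPM in WT libraries (2.02, adjusted p = 1.1e-05). Ddit3 (2.16), Atf4 (1.11) and Atf6 (0.78) passed too, while Creb3l1 (1.42, adjusted p = 0.10) and Creb3 (0.11, adjusted p = 0.72) did not. In iTreg 0 of the 7 were called by edgeR, where 0.166% of all tested genes were called higher. At an unadjusted p under 0.05, 2 of the 7 were higher in iTreg, against 3.83% of all tested genes. DESeq2 called 1 of the 7 higher in iTreg, against 0.615% of all tested genes. Xbp1 was at 440, 368 and 311 CPM in iTreg KO libraries, against 288, 289 and 230 CPM in iTreg WT libraries (0.47, adjusted p = 0.35). The difference of the Xbp1 effects was -1.55 (adjusted p = 0.012). As a scale, Hspa5, the main ER chaperone, had a log2 fold change of 1.59 in iTreg (adjusted p = 0.006) and 1.98 in nTreg (adjusted p = 9.5e-05).

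Markers of other cells were examined because secretory cells are rich in these transcripts. Plasma cell markers summed to 254 to 277 CPM in nTreg KO libraries and 166 to 178 CPM in nTreg WT libraries, with 1 of 5 tested called, Derl3, which is itself a target of the unfolded protein response. Without Derl3 the sums were 181 to 190 CPM in nTreg KO and 164 to 177 CPM in nTreg WT. In the cultured iTreg these sums were larger, at 897 to 984 CPM with the KO label and 727 to 963 CPM with the WT label. The list includes Prdm1 and Irf4, so its sum is no measure of plasma cells alone. B cell markers summed to 16.5 to 17.2 CPM in nTreg KO and 28.1 to 33.7 CPM in nTreg WT, with Cd22 called lower. Myeloid markers ranged from 33.8 to 283 CPM in nTreg KO and from 38.0 to 134 CPM in nTreg WT, highest in the replicate 2 library of each, and natural killer cell markers from 4.06 to 4.73 CPM in nTreg KO and from 5.86 to 12.7 CPM in nTreg WT. The part of these cells in the results was not tested. The member sum of nTreg replicate 2 was 7207 CPM with the KO label and 4896 CPM with the WT label, a wider gap than that of the other pairs.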

How the data were processed

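Per the submitters' processing notes, reads were trimmed with cutadapt 1.13, aligned to mm10 with STAR and counted with HTSeq 0.6.1p1; annotation, strand setting and read handling are not given in the sources used here. The authors deposited 1 table of raw counts for each library, by gene symbol. From these, edgeR 4.0.16 (filterByExpr with a minimum count of 10, TMM, robust quasi-likelihood, a term per group over all 12 libraries, two-sided) gave fold changes, and p-values were adjusted over all 12038 tested genes. CPM are TMM-normalised. ± is the SD of 3 libraries for levels and shares, and the SE for log2 fold changes. DESeq2 1.42.0, RLE scaling, 2 other filters, a replicate block, fewer groups and left-out libraries were alternatives.

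Same-numbered KO and WT libraries deviated together (r from 0.438 to 0.572 in nTreg and from 0.307 to 0.629 in iTreg), which is why blocked values are given; iTreg and nTreg of a number did not (-0.0539 to 0.0953). Coordinates and exon lengths are from GENCODE M21. Members, lists and tests were chosen with earlier results of these data known. Every member is named; those called, and their paralogs, are given by library. Intervals of counts cover counting error only. The scripts were tested on simulated data.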

Additional observations from a re-analysis of the deposited data

Results flagged for a closer look

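In 3 of the 41 vesicle transport genes the KO effect differed between the kinds of Treg by the test of the difference itself (edgeR, adjusted over all tested genes, iTreg minus nTreg). All 3 were called lower, and the same test called 0.274% of all tested genes lower and 0.0166% higher. Tmed10 had a difference of -1.02 on the log2 scale, with a 95% interval of -1.31 to -0.72 before adjustment, and its call was lost in 2 of 12 fits with 1 library left out (adjusted p up to 0.055). Bet1 had a difference of -1.25, with an interval of -1.67 to -0.84, and its call was lost in 7 of 12 such fits (adjusted p up to 0.076). Surf4 had a difference of -0.81, with an interval of -1.10 to -0.52, and its call was lost in 9 of 12 (adjusted p up to 0.10). In all 3 genes the difference kept its sign in each of those fits.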

How the results depend on the processing

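Among the 41 members, nTreg KO against WT gave 19 calls, and 32 with only the groups compared or with the replicate block, 7 without both nTreg libraries numbered 2, 4 without the libraries with Xist reads, and 11 to 13 with 1 library left out. The iTreg comparison gave 1 call, and 3 by DESeq2, 2 with the block, 0 with only the groups compared or without the libraries with Xist, and 0 to 2 with 1 library left out. The difference gave 3 calls, and 7 by DESeq2 or with the block, 0 without both nTreg libraries numbered 2 or without the libraries with Xist, and 0 to 4 with 1 library left out. Between the kinds of Treg, leaving out the libraries with Xist gave 12 calls in place of 19 with the KO label and 17 in place of 29 with the WT label. The calls among all tested genes then fell from 7451 to 6242 with the KO label and from 7850 to 5874 with the WT label. No member changed sign where it had been called. Fits without libraries have fewer samples, and the cause of the other changes was not tested. Over all tested genes, nTreg calls were 304 in the fit reported, 496 by DESeq2, 1142 with only the groups compared (621 higher and 521 lower), 1083 with the block, 103 without the libraries numbered 2 and 71 without those with Xist. The iTreg calls were 22, and 99 by DESeq2, 114 with the block and 0 with only the groups compared or without the libraries with Xist. The differences were 35, and 140 by DESeq2, 217 with the block and 1 without either set of libraries. The block added Ergic3 to the calls with the WT label between the kinds and changed no call with the KO label. Kdelr3 had at most 26 reads in a library.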

Other observations

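The members differed widely in their levels per kilobase of exon. Arf1, the GTPase of the COPI coat, led in each group, at 195 ± 14.3 CPM per kilobase in iTreg KO, 156 ± 5.61 in iTreg WT, 176 ± 3.77 in nTreg KO and 113 ± 6.39 in nTreg WT (SD, n = 3 each). The cargo receptor Surf4 was the next in each group, at 119 ± 12.4 CPM per kilobase in iTreg KO, 86.9 ± 4.49 in iTreg WT, 172 ± 4.46 in nTreg KO and 71.4 ± 1.62 in nTreg WT. Kdelr3, a KDEL receptor, was the lowest in each group, at 0.486 ± 0.554 CPM per kilobase in iTreg KO, 0.732 ± 0.662 in iTreg WT, 0.417 ± 0.175 in nTreg KO and 0.0569 ± 0.0529 in nTreg WT.

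The place in that order differed between the labels in nTreg for 33 of the 41 members. This count includes shifts to a neighbouring place, as for Sar1a (number 8 in nTreg KO and 9 in nTreg WT). By level per kilobase among the 41, Tmed10 was number 13 in nTreg KO and 22 in nTreg WT, Tmed3 was 25 in nTreg KO and 36 in nTreg WT, and Sec24d was 32 in nTreg KO and 40 in nTreg WT. Ergic3 was number 15 in nTreg KO and 8 in nTreg WT, and Sec24b was 22 in nTreg KO and 14 in nTreg WT. Exon lengths came from an annotation other than the one the counts were made with, which is not given in the sources used here, so this order is approximate. It is a description with no test.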
